A study of Canis lupus familiaris with 4 samples.

Results

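Hyaluronan is a very large, unbranched sugar polymer of the extracellular matrix. Synthases in the plasma membrane spin it out of the cell from 2 activated sugars, UDP-glucuronic acid and UDP-N-acetylglucosamine. Receptors such as CD44 then hold it at the cell surface, link proteins and proteoglycans organise it into a coat, and hyaluronidases and related proteins cut it into smaller pieces. Stromal and fibroblast-like cells are a main source of hyaluronan in connective tissue, and the hyaluronan-binding protein encoded by TNFAIP6 is well known among the secreted products of mesenchymal stromal cells (MSCs).

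The 10 genes described here cover these steps and were taken by symbol from the table of 30951 genes: the synthases HAS1, HAS2 and HAS3, the receptor CD44, the binding and linking proteins TNFAIP6, HAPLN1 and HAPLN3, and the turnover genes HYAL1, HYAL2 and CEMIP. Each symbol matched 1 row, and all 10 genes were detected, meaning that 2 or more libraries had reads. The data are total RNA sequencing of untreated MSCs from canine adipose tissue, 1 primary culture and 1 library for each of 4 dogs, in a series on the antimicrobial activity of the freeze-dried secretome of such cells. The cultures grew in DMEM with 10% fetal bovine serum, antibiotics and an antifungal at 37 °C and 5% CO2, and were harvested 48 h after seeding. The labels name neither breed, age, sex nor passage of the cultures. All 4 libraries form 1 group, so no condition is compared with another. The 4 dogs are the replicates, and any difference between dogs also holds the difference between cultures and libraries.

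Reads assigned to genes ranged from 7474011 in dog 4 to 22411268 in dog 1. Dog 4 was thus the shallowest library, and it was also the highest of the 4 dogs for 36.0% of the 17200 detected genes, against 21.2%, 18.4% and 24.4% for dogs 1, 2 and 3. Of the 5 MSC markers listed, THY1, ENG, PDGFRA and PDGFRB lay above the median detected gene, whereas NT5E lay below it with 3 to 47 reads per dog. PTPRC, CD34, AIF1 and PECAM1 had between 0 and 5 reads in every dog. Among markers of blood and vessel cells, CSF1R (74.0 to 276 normalised reads) and VWF (26.0 to 273) had more. Values below are normalised reads, the reads of a gene divided by the size factor of its library, or levels, the deposited log2 value of a gene minus the median detected gene of the same library. Neither is corrected for gene length, so a gene is compared with itself between dogs, and values of different genes are read levels, not numbers of transcripts. Intervals on single libraries are exact 95% intervals that cover counting error only. Dogs are called within counting error of each other where these intervals overlap, which is not a test of their difference.

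**Figure D1:**
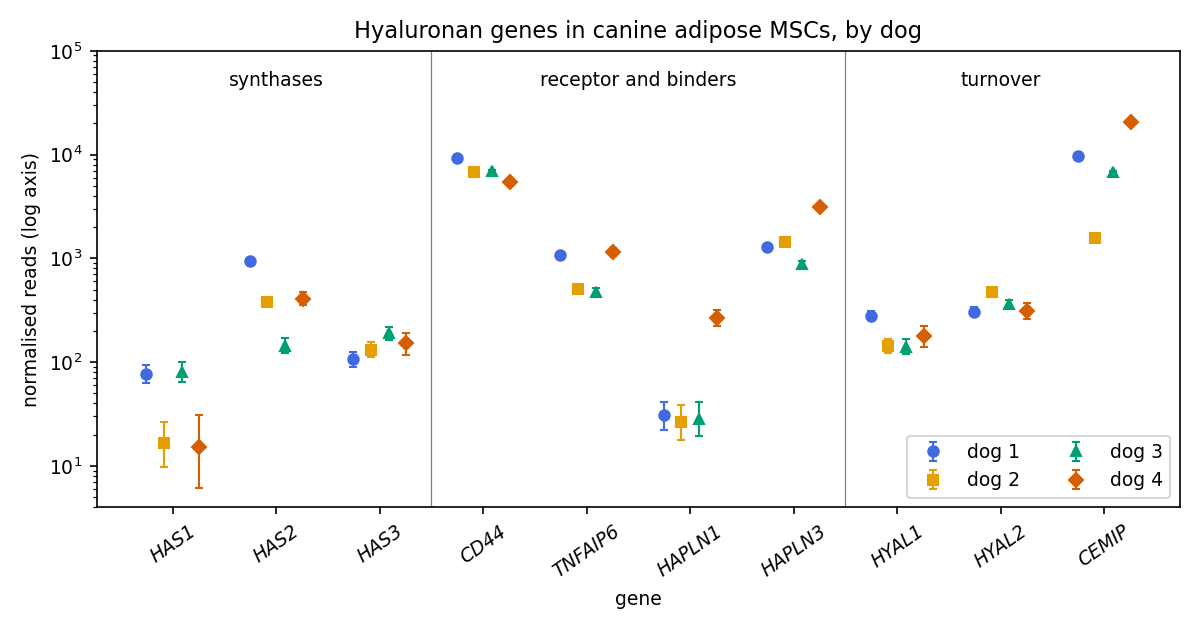
Normalised reads (vertical log axis) of the 10 hyaluronan genes (horizontal axis) in the 4 dogs. Points are single libraries and bars are exact 95% Poisson intervals for counting error. CEMIP ranges from 1581 in dog 2 to 20469.9 in dog 4, HAS2 from 144 in dog 3 to 953 in dog 1, and HAPLN1 is near 30 in 3 dogs and at 269 in dog 4.

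All 3 synthase genes had reads in all 4 cultures, and they varied between dogs to different degrees. HAS2, the synthase that mouse embryos cannot develop without, had 953, 384, 144 and 408 normalised reads in dogs 1 to 4. Dog 1 was highest, dog 3 lowest, and dogs 2 and 4 lay within counting error of each other. Dog 1 exceeded dog 3 by 6.61-fold (interval 5.58 to 7.88). In a bulk RNA sample, fewer cells that express a gene and less RNA per cell cannot be told apart, which holds for every difference between dogs given here.

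HAS3, which encodes the synthase known for making shorter chains, was the steadiest of the 3. It had 107, 132, 190.0 and 152 normalised reads in dogs 1 to 4, and every neighbouring pair in the order of the dogs had overlapping counting intervals. Dog 3 exceeded dog 1 by 1.77-fold (interval 1.43 to 2.21).

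HAS1 fell into a high and a low pair of dogs. It had 76.9 and 81.1 normalised reads in dogs 1 and 3, and 16.6 and 15.2 in dogs 2 and 4. Within each pair the counting intervals overlapped, and dog 3 exceeded dog 4 by 5.35-fold with a wide interval (2.48 to 13.7), since dog 4 held only 7 reads of the gene. In the dog RefSeq annotation the span of HAS1 overlaps that of the gene SPACA6. Whether their exons overlap was not checked, and the labels do not say whether counting used strand, so it is not known whether reads are shared. SPACA6 had 169.5, 155, 109 and 310.1 normalised reads in dogs 1 to 4, so it was highest in dog 4, where HAS1 was lowest.

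The makeup of the synthase reads therefore differed between dogs. HAS2 took 83.8% of the reads of the 3 synthases in dog 1 (exact Clopper-Pearson 95% interval 81.9 to 85.6), 72.1% in dog 2 (68.2 to 75.7), 34.7% in dog 3 (30.2 to 39.4) and 70.9% in dog 4 (65.1 to 76.3). Dog 3 stood below the other dogs with intervals that did not overlap theirs. The HAS3 share ran the other way, at 45.7% in dog 3 (41.0 to 50.6), against 9.41%, 24.8% and 26.4% in dogs 1, 2 and 4. HAS1 held 19.5% in dog 3 (15.9 to 23.6) and 6.76%, 3.12% and 2.64% in dogs 1, 2 and 4. Normalised reads of the 3 synthases together were 1137 in dog 1, 532 in dog 2, 415 in dog 3 and 575 in dog 4, so dog 1 had the most synthase reads and dog 3 the fewest. These shares describe single libraries and were not tested between dogs.

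**Figure D2:**
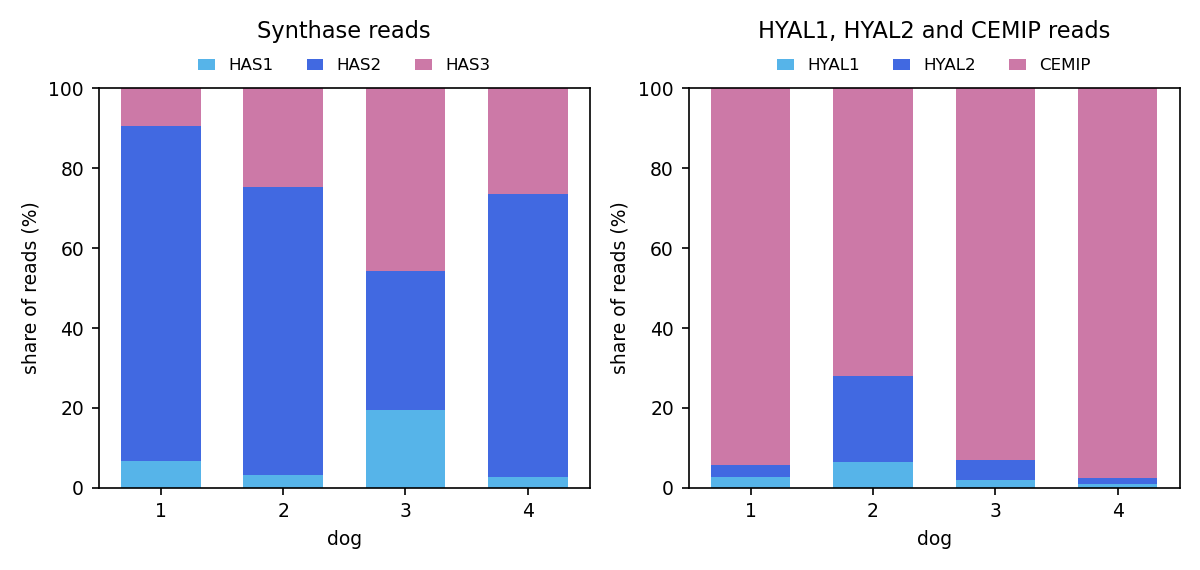
Share of reads (percent, vertical axis) held by each gene in each dog (horizontal axis), among the 3 synthase genes on the left and among HYAL1, HYAL2 and CEMIP on the right. Bars are single libraries without correction for gene length. HAS2 holds 34.7% of synthase reads in dog 3 and 70.9% to 83.8% in the other dogs, and CEMIP holds 72.0% on the right in dog 2 and 93.1% to 97.7% in the other dogs.

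CD44, the principal cell-surface receptor of hyaluronan and itself a marker used for MSCs, was abundant and steady. It had 9264, 6737, 6986 and 5498 normalised reads in dogs 1 to 4, and the counting intervals of dogs 2 and 3 overlapped. Dog 1 exceeded dog 4 by 1.69-fold. The level was 5.46 ± 0.31 log2 units above the median detected gene (mean over the 4 dogs ± SD, here and for each later level), and the test over all detected genes placed it more than 1 log2 unit above (limma, Benjamini-Hochberg adjusted p = 4.33e-09, above in 4 of 4 dogs).

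TNFAIP6 encodes TSG-6, a secreted hyaluronan-binding protein that moves heavy chains of the serum protein inter-alpha-inhibitor onto hyaluronan. The gene had 1077, 503, 479 and 1152 normalised reads in dogs 1 to 4. Dogs 1 and 4 formed a high pair and dogs 2 and 3 a low pair, with overlapping counting intervals within each pair, and dog 4 exceeded dog 3 by 2.40-fold (interval 2.12 to 2.72). Its level was 2.25 ± 0.68 (limma, adjusted p = 0.000279). The call was lost when the reference was the median over genes with reads in all 4 libraries (level 1.43, limma adjusted p = 0.0652) or the distance was 2 log2 units, with adjusted p from 7.29e-10 to 0.284 over all settings, and it held without each single dog.

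The 2 link protein genes differed in how they varied. Link proteins fasten large proteoglycans such as versican and aggrecan to hyaluronan. HAPLN1, named as cartilage link protein, had 30.9, 26.8 and 28.6 normalised reads in dogs 1, 2 and 3, which lay within counting error of each other, and 269 in dog 4. Dog 4 exceeded dog 2 by 10.0-fold (interval 6.66 to 15.6). In RefSeq the span of a long noncoding RNA gene overlaps that of HAPLN1, and whether exons overlap and reads are shared was not checked. HAPLN1 is the gene among the 10 for which 1 library stood apart by Dixon's criterion. Of all detected genes, 5.36% met it for any dog and 1.43% with dog 4 on the high side. Dog 4 held 124 reads of HAPLN1 although it was the shallowest library, against 43, 29 and 30 reads in dogs 1 to 3, and after thinning all libraries to the same total the reads were 124 in dog 4 and 14, 19 and 15 in dogs 1 to 3.

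Markers of cartilage cells did not stand higher in dog 4. The summed normalised reads of SOX9, COL2A1, ACAN, COL9A1 and MATN3 were 58.6 in dog 4, against 63.9, 114 and 70.6 in dogs 1 to 3. COL2A1, which encodes the main cartilage collagen, had 1 read in dog 4 and COL9A1 had 0. The 5 genes of the smooth muscle and pericyte list summed to 72307 normalised reads in dog 4, against 33167, 22432 and 18179.9 in dogs 1 to 3. The difference lay mostly in ACTA2, with 66731 normalised reads in dog 4, against 29593, 17014 and 13387 in dogs 1 to 3. MYH11 differed by 1.28-fold over the dogs, with dog 4 highest, and CSPG4 was highest in dog 2, at 4246 normalised reads in dog 4 and 4382 in dog 2. RGS5 had 0 reads in every dog and DES had 4 reads in dog 4. Of the adipocyte markers, LEP had 37 reads in dog 4 and at most 4 in the other dogs, whereas PLIN1 had 6 reads in dog 4 and was highest in dog 3 with 23. The part of these genes in the HAPLN1 difference was not tested.

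HAPLN3, the link protein gene with broad tissue expression, was also highest in dog 4. It had 1281, 1429, 885 and 3151 normalised reads in dogs 1 to 4, and all 4 dogs were separated by more than counting error. Dog 4 exceeded dog 3 by 3.56-fold (interval 3.28 to 3.87). Its level was 3.25 ± 0.77 (limma, adjusted p = 9.36e-06, above in 4 of 4 dogs). In the dog RefSeq annotation HAPLN1 lies next to VCAN and HAPLN3 next to ACAN, the genes of 2 proteoglycans that link proteins bind. VCAN, the versican gene, had 125515 normalised reads in dog 4, and 62431, 61655 and 37599.8 in dogs 1 to 3, so dog 4 was highest for it as well. ACAN had at most 31 reads in any dog.

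Among the turnover genes, HYAL1 and HYAL2 varied less between dogs than CEMIP did. HYAL2 encodes a hyaluronidase anchored at the cell surface that starts the breakdown of long chains, and it had 307, 471, 359.9 and 312 normalised reads in dogs 1 to 4. Dog 2 was highest, and the other dogs were within counting error of their neighbours. HYAL1, the lysosomal hyaluronidase that cuts the pieces further, had 281, 143, 141 and 178 normalised reads. Dog 1 was highest at 1.99 times dog 3, and dogs 2, 3 and 4 were within counting error of their neighbours. In RefSeq the span of a long noncoding RNA gene overlaps both HYAL1 and HYAL2, and that of another overlaps TNFAIP6. A small nuclear RNA gene lies over the span of HAS2 in part or whole, and a pseudogene over that of HAS3. Overlap was taken from gene start and end only, so whether exons overlap and reads are shared is not known here either.

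CEMIP encodes a hyaluronan-binding protein that human skin fibroblasts need to break down hyaluronan. The gene had 9655, 1581, 6757 and 20469.9 normalised reads in dogs 1 to 4. All 4 dogs were separated by more than counting error, with dog 4 highest and dog 2 lowest, and dog 4 exceeded dog 2 by 13.0-fold (interval 12.3 to 13.6). The level was 5.41 ± 1.55 (limma, adjusted p = 7.75e-06, above in 4 of 4 dogs). Its SD was 5.57 times the SD that limma's trend gives for genes of the same level, the largest such ratio among the 10 genes. Among the reads of HYAL1, HYAL2 and CEMIP together, CEMIP held 94.3% in dog 1 (interval 93.9 to 94.6), 72.0% in dog 2 (70.2 to 73.8), 93.1% in dog 3 (92.5 to 93.7) and 97.7% in dog 4 (97.3 to 98.0).

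By normalised reads, HAS2 put the dogs in the same order as HYAL1 and in another order than HYAL2 or CEMIP. Parts of these orders lay within counting error. This held for dogs 4 and 2 in HAS2, for neighbours among dogs 4, 2 and 3 in HYAL1, and among dogs 3, 4 and 1 in HYAL2. For each read of CEMIP there were 0.0987 reads of HAS2 in dog 1 (interval 0.0932 to 0.104), 0.243 in dog 2 (0.218 to 0.270), 0.0213 in dog 3 (0.0180 to 0.0251) and 0.0199 in dog 4 (0.0171 to 0.0230). The ratios of dogs 3 and 4 lay within counting error of each other, although dog 3 had the lowest HAS2 value and dog 4 the highest CEMIP value. The span of this ratio between dogs was 12.2-fold. Per read of HYAL2 there were 3.11 reads of HAS2 in dog 1, 0.816 in dog 2, 0.401 in dog 3 and 1.31 in dog 4, a span of 7.76-fold with dog 1 on top. The order of the dogs thus changed with the turnover gene taken: dog 2 was highest against CEMIP but lay below dogs 1 and 4 against HYAL2. Each ratio carries the lengths of both genes, so it compares dogs and does not say which gene had more transcripts.

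**Figure D3:**
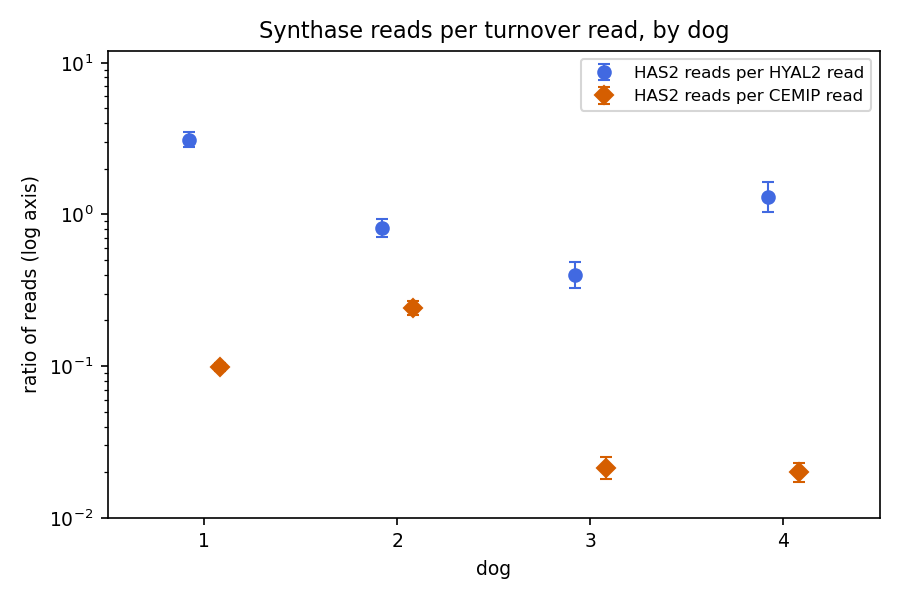
Reads of HAS2 per read of HYAL2 (circles) and per read of CEMIP (diamonds), on a vertical log axis, in each of the 4 dogs. Bars are exact 95% intervals for counting error. Per CEMIP read the ratio is 0.243 in dog 2 and close to 0.02 in dogs 3 and 4, whereas per HYAL2 read it is highest in dog 1 at 3.11.

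Against the median detected gene, 4 of the 10 genes were above and none below: CD44, TNFAIP6, HAPLN3 and CEMIP were above. No gene was below at an unadjusted limma p under 0.05 either, the smallest being 0.0926 for HAS1. Of all 17200 detected genes 33.3% were above and 35.8% below (limma, distance of 1 log2 unit, Benjamini-Hochberg), so the count above is close to the background. The median level over the 10 genes was 1.29, against -0.02 over all detected genes. HAS2 (1.35 ± 1.06, adjusted p = 0.211), HYAL2 (1.24 ± 0.26, adjusted p = 0.0918), HYAL1 (0.31 ± 0.43), HAS3 (0.02 ± 0.30), HAPLN1 (-1.11 ± 1.32, adjusted p = 0.522) and HAS1 (-1.48 ± 0.90, adjusted p = 0.129) passed in neither direction. Some of these turned on 1 library: HAS2 was above without dog 3 (1.62), HAS1 was below without dog 1 (-1.99) or dog 3 (-1.92), and HAPLN1 was below without dog 4 (-2.003). HYAL2 was above on a log2 scale of normalised reads with a pseudocount of 1 (1.34).

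**Figure D4:**
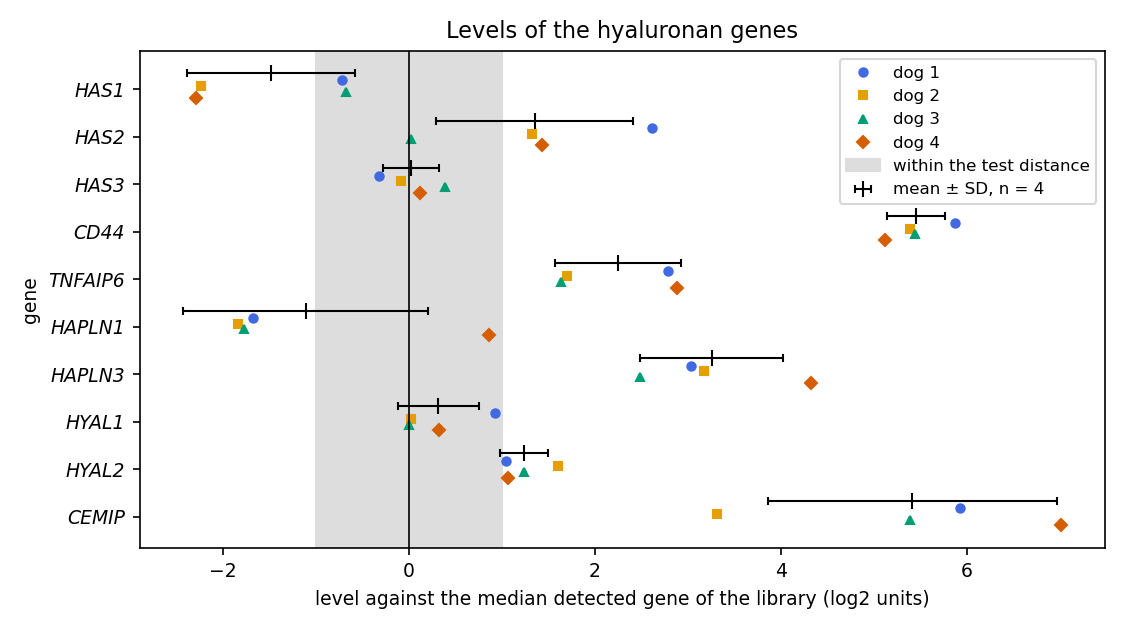
Levels of the 10 hyaluronan genes (vertical axis) as log2 units against the median detected gene of the same library (horizontal axis). Coloured points are the 4 dogs, black bars are the mean ± SD (n = 4), and the grey band is the test distance of 1 log2 unit. All dogs lie beyond the band for CD44, CEMIP, HAPLN3 and TNFAIP6 and, by a narrow margin that did not pass the test, for HYAL2, whereas HAPLN1 has dog 4 at 0.87 and the other dogs between -1.84 and -1.68.

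The members ranged from a wide spread between dogs to a spread near that of limma's trend. The median SD over the 10 genes was 0.72 log2 units, against 0.36 over all detected genes. In the test of variability against the trend, 5 of the 10 had an unadjusted p under 0.05, against 5.20% of all detected genes: CEMIP (0.000402), HAS2 (0.00448), HAPLN3 (0.00915), HAPLN1 (0.0204) and TNFAIP6 (0.0220), each an unadjusted p from limma's trended prior. None passed after adjustment over all 17200 genes (smallest adjusted p among the 10 was 0.210, for CEMIP), and neither did any other of these genes. The 10 genes were chosen with earlier results of these data known. Setting their median SD and the count of 5 beside all detected genes is thus no independent comparison. The count of 5 was lower under other settings of the same limma test: 1 of the 10 had an unadjusted p under 0.05 with undetected genes included in the fit, against 9.75% of all genes, and 3 did with a constant prior, against 3.74%. Without dog 4, 3 of the 10 had an unadjusted p under 0.05, against 4.71% of all genes, and the median SD was 0.44, against 0.27 over all genes. Dog 4 was the highest dog for CEMIP, HAPLN1, HAPLN3 and TNFAIP6, that is 4 of 10, beside its 36.0% of all detected genes. CD44, HYAL1, HYAL2 and HAS3 had an SD of 0.26 to 0.43 and lay at 0.761 to 1.18 times the SD of the trend. HAS1 had an SD of 0.90 and lay between by this ratio, at 1.72 (unadjusted p = 0.116, the same limma test).

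Genes with the pattern nearest to CEMIP and HAPLN1, the 2 members with the largest SD of the level between dogs (1.55 and 1.32), were found by the root mean square difference of their deviations from their own mean over the 4 dogs, among named genes with a mean level of at least 0. For CEMIP these were F3 (0.30 log2 units), which encodes the coagulation starter tissue factor, the complement regulator gene CD59 (0.37) and BNIP3 (0.44), a mitochondrial gene known to respond to low oxygen. F3 had 13260.4, 2426, 5904 and 25178 normalised reads in dogs 1 to 4. For HAPLN1 they were the MHC class I gene DLA88 (0.14), the matrix protease gene ADAMTS1 (0.17) and HSPB7 (0.17), and all 3 had dog 4 far above the other dogs, ADAMTS1 with 439, 340.5, 316 and 1973 normalised reads in dogs 1 to 4. DLA88 belongs to a family of similar genes whose reads are hard to assign. These are descriptions over 4 points.

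Most listed genes of enzymes that make or use the sugar precursors had high read levels. Of the 12 listed, 9 passed as above the median detected gene, none as below and 3 in neither direction. Of all detected genes 33.3% were above and 35.8% below. UGDH, which oxidises UDP-glucose to UDP-glucuronic acid, stood at 5.41 ± 0.78, with 9820.3, 8348, 8629.8 and 3021 normalised reads in dogs 1 to 4, so dog 4 was clearly lowest. GPI, the sugar-phosphate isomerase that also serves glycolysis, stood at 5.32 ± 0.47. GFPT2 (4.72 ± 0.33) and GFPT1 (3.78 ± 0.18) encode the enzymes that open the route to UDP-N-acetylglucosamine. UXS1, which turns UDP-glucuronic acid into UDP-xylose (0.40 ± 0.23), and GNPNAT1, which acetylates glucosamine 6-phosphate (1.23 ± 0.14), had the lowest read levels of the list. The dog with the lowest UGDH was thus the one with the highest CEMIP, HAPLN1 and HAPLN3, while its HAS2 lay between those of the other dogs.

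Other genes listed as reported receptors of hyaluronan mostly had low read levels, and whether each product binds hyaluronan was not tested here. Of 8 listed, ICAM1 was above the median detected gene at 3.78 ± 0.36, 5 were below and 2 passed in neither direction. Among all detected genes 33.3% were above and 35.8% below. HMMR, a hyaluronan-binding protein of the mitotic spindle, stood at 0.52 ± 0.18, and LYVE1, the receptor of lymphatic vessels, at -0.04 ± 0.59. LYVE1 had 245, 148, 109 and 82.4 normalised reads in dogs 1 to 4. The scavenger receptor genes STAB1 (-2.45 ± 0.41) and STAB2 (-2.72 ± 0.46) were the lowest. The product of STAB2 clears hyaluronan from the circulation. TLR4 was below as well, at -2.18 ± 0.26.

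**Figure D5:**
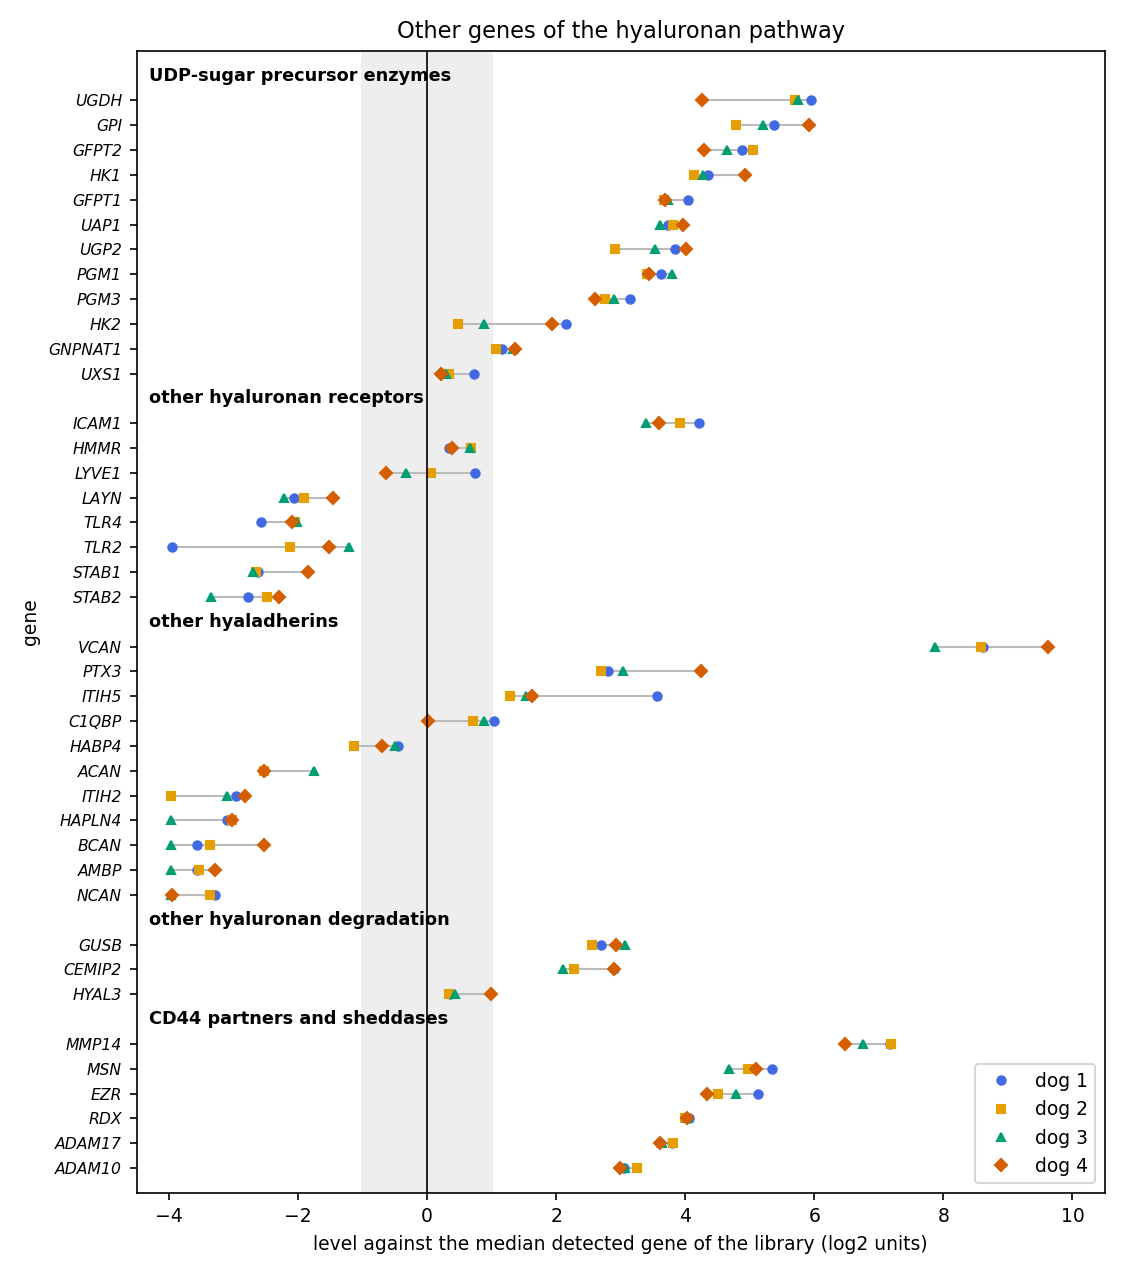
Levels of 40 detected pathway genes in 5 lists (vertical axis) as log2 units against the median detected gene of the same library (horizontal axis), not corrected for gene length. Points are the 4 dogs, grey lines join the lowest and highest dog, and the grey band is the test distance. VCAN lies farthest right at 8.67, most genes of the receptor list other than ICAM1 lie left of the band or in it, and ITIH5 has dog 1 alone at 3.56.

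The genes of hyaluronan-binding proteins of the matrix ranged from abundant to silent. Of 16 listed, 3 passed as above, 6 passed as below, 2 passed in neither direction and 5 were not detected. Of all detected genes 33.3% were above and 35.8% below, so the count above is close to the background for the 11 detected. VCAN stood at 8.67 ± 0.72. The long pentraxin PTX3, which binds the TSG-6 and heavy chain complex in the matrix around the ovulated egg, stood at 3.19 ± 0.71, with 1083, 1021, 1306 and 2978 normalised reads in dogs 1 to 4. Reads of TNFAIP6 per read of PTX3 were 0.995 in dog 1, 0.493 in dog 2, 0.367 in dog 3 and 0.387 in dog 4.

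Genes of inter-alpha-inhibitor, the partner of TSG-6, were nearly absent at the RNA level. ITIH1 and ITIH3, which encode heavy chains of inter-alpha-inhibitor, had 0 reads in every dog, as did ITIH4, HAPLN2 and HABP2. With 61335851 reads in the 4 libraries together, an observed 0 still permits 0.0489 CPM (reads per 1000000 assigned reads), for counting error only. ITIH2 had 7, 0, 4 and 3 reads in dogs 1 to 4, and AMBP, the gene of the light chain bikunin, had at most 1 read per dog. Inter-alpha-inhibitor is made mainly by the liver and circulates in serum. ITIH5, a related heavy chain gene, was above at 2.00 ± 1.04, but this rested on dog 1, which had 1845 normalised reads against 375, 449 and 468 in dogs 2 to 4, and the call was lost without dog 1 (1.23). Dog 1 was also the dog with the most HAS2 reads. NCAN (-3.64 ± 0.37) and AMBP (-3.59 ± 0.28) were the lowest detected genes of the list.

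Other genes of hyaluronan breakdown were moderately abundant. GUSB (2.81 ± 0.23), which encodes the lysosomal beta-glucuronidase that takes single sugars off the ends of the pieces, and CEMIP2 (2.54 ± 0.42), which encodes a membrane protein related to CEMIP, were above the median detected gene. HYAL3 passed in neither direction at 0.53 ± 0.31, and SPAM1, the hyaluronidase of sperm, had 0 reads. CEMIP2 had 1157, 759, 672 and 1167 normalised reads in dogs 1 to 4, so it was high in the same dogs as TNFAIP6 and did not share the low value of CEMIP in dog 2 alone.

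All 6 listed partners and sheddases of CD44 were above the median detected gene, beside 33.3% of all detected genes. MMP14 (6.90 ± 0.35), ADAM17 (3.72 ± 0.10) and ADAM10 (3.09 ± 0.12) encode proteases that cut CD44 at the cell surface. MSN (5.02 ± 0.28) and EZR (4.69 ± 0.35) encode proteins that tie its tail to actin, as does RDX (4.03 ± 0.03), which was almost equal in the 4 dogs at 2631, 2550.5, 2644 and 2572 normalised reads. Over all 5 pathway lists, 21 of the 40 detected genes passed as above and 11 as below, beside 33.3% and 35.8% of all detected genes, with a median level of 2.27.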

How the data were processed

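Total RNA of 4 canine adipose MSC cultures was sequenced from 10 ng per library with a stranded, ribosomal RNA depleting kit, per the labels' protocols. The authors deposited log2 values from a variance-stabilizing transformation, per the file headers. FastQC 0.12.1, Trimmomatic 0.39, STAR 2.7.11a and DESeq2 with build CanFam3.1 are named in the submitters' processing notes. Which program counted reads, whether it used strand and which annotation it read is not given in the sources here. Columns were matched to dogs by number, and 0 columns were left unused.

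Inverting the transformation gave whole reads within 0.01 for 100% of values above the floor. Levels over 17200 detected genes were fitted with an intercept alone (limma 3.58.1 under R 4.3.3), a trended prior, a distance of 1 log2 unit and Benjamini-Hochberg adjustment at 0.05. Variance between dogs was tested against the trended prior by an F test. The tests were tested on simulated data. In these, the genes of wide spread were set to vary more than any of the 10 members did. Intervals are exact at 95%, floors are 3 reads, and detected means reads in at least 2 libraries. The 10 genes and the lists were chosen with earlier results of these data known. Named genes were the 10 members, up to 3 highest and 2 lowest of each pathway list, genes with 0 reads, the 3 genes nearest in pattern to the 2 members of largest SD, and genes with 1 library standing apart by Dixon's criterion. Other genes were added for comparison after their values were seen. Of the listed symbols, HYAL4 was not analysed here, 1 result on a pathway gene is not reported here, and TMEM2 is the older symbol of CEMIP2. Differences between genes per coding length were not computed, since the reference table used holds no coding lengths and is of another build (UU_Cfam_GSD_1.0), used only for which genes neighbour or overlap.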

Additional observations from a re-analysis of the deposited data

Results flagged for a closer look

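In 9 of the 50 detected genes of the hyaluronan and pathway lists, 1 dog stood apart from the other dogs (gap to the nearest dog divided by the whole range above Dixon's 95% value), a criterion met by 5.36% of all detected genes. HAPLN1 had dog 4 far on the high side, with a gap of 0.942 of the range. Dog 4 was also high for STAB1 (0.912, with 12 reads against 9 to 13 in the other dogs) and HYAL3 (0.853), and low for UGDH (0.849). Dog 1 was high for ITIH5 (0.855) and GFPT1 (0.844) and low for TLR4 (0.864). Dog 3 was high for ACAN (0.990, with 31 reads) and low for HAPLN4 (0.910, with 0 reads). STAB1, TLR4, ACAN and HAPLN4 had at most 31 reads in any dog.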

How the results depend on the processing

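The 4 genes above the median detected gene became 10 with the reference set at the median over all genes of the table, where HAS1 turned to 1.92 and HAPLN1 to 2.29. With that reference 11406 of all 17200 detected genes were above and 0 below, against 5723 and 6163 in the reported fit. None of the 10 members was below in the reported fit, against 2 (HAS1 at -2.30 and HAPLN1 at -1.93) with the median over genes with reads in all 4 libraries, 1 with a distance of 0.5 log2 units, and 0 to 1 when each dog was left out. Of all 17200 detected genes, 7479 were below with the median over genes with reads in all 4 libraries. With a distance of 0.5 log2 units 6984 were below. Of the pathway genes 11 were below, against 0 with the median over all genes and 6 with a distance of 2 log2 units or with a filter of 10 reads in 2 libraries. Over all genes tested, 4209 of 17200 were below with that distance and 2184 of 13252 with that filter. No member passed the adjusted variability test under any setting run. Quantile normalization, a constant prior and, chosen after seeing the data, thinning to 7474011 reads left the counts of members above and below at 4 and 0. Comparisons per gene length were not run. No paired analysis was possible because there is 1 group. Depth limits HAS1 most, with 7 reads in dog 4.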
